A study of Mus musculus with 10 samples.

Results

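The genes described here are 37 neutrophil identity and granule genes, taken as the rows of the deposited count table that carry one of 37 gene symbols, out of 54532 genes in the table. All 37 were found, and all passed the filter on low counts that left 17139 genes for testing. By role they are 18 genes of mature neutrophils, 4 adhesion genes, 4 subunits of the NADPH oxidase, 7 genes of secondary granules and late precursors, and 4 genes of primary granules. The last 2 sets form the 11 granule and precursor genes that are set against the 18 mature ones. The samples were lungs of wild-type (WT) mice in 3 groups: LPS+TSLP (4 libraries; recombinant TSLP as a pretreatment, then LPS), LPS (3 libraries) and Vehicle (3 libraries). LPS is lipopolysaccharide, a component of the outer membrane of Gram-negative bacteria, and TSLP is thymic stromal lymphopoietin, a cytokine made by epithelia. No transgene or deletion is named for any group. Doses, routes, time points, strain, age and sex are not given in the sources used here, nor whether a library is 1 animal or a pool, so the p-values measure the spread between these libraries.

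Neutrophils are made in the bone marrow, where their precursors fill granules in a fixed order. Primary (azurophil) granule proteins such as myeloperoxidase are transcribed in promyelocytes, secondary (specific) granule proteins such as lactoferrin in later precursors, and both sets of transcripts are largely shut off before the cell leaves the marrow. The mature cell carries calprotectin, chemoattractant receptors, integrins and a dormant NADPH oxidase instead. A lung exposed to LPS makes chemokines that draw mature neutrophils in from the blood. Several of the genes have other sources in the lung: lipocalin 2, lactoferrin and SLPI are made by airway epithelium, and oxidase subunits and integrins by monocytes and macrophages. The tissue was whole lung, in which fewer cells of a type and less RNA per cell cannot be told apart.

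Totals were 16175172 to 18374461 counts per library. LPS+TSLP replicate 1 stood apart, with 13.1% of its counts in mitochondrial genes, against 2% to 6.5% in the other LPS+TSLP libraries, 1.2% to 2.58% in LPS and 1.11% to 1.27% in Vehicle. LPS replicate 1 differed in sex-linked genes, with 206 CPM of Xist and 0 CPM of Ddx3y, whereas the other 9 libraries had at most 0.451 CPM of Xist. Ddx3y was at 59.7 to 94.7 CPM in the 4 LPS+TSLP libraries and at 70 and 89.5 CPM in LPS replicates 2 and 3, against 6.03 to 11.4 CPM in Vehicle. The part of these differences in the results was not tested, and results that rest on LPS+TSLP replicate 1 are given with and without it. CPM, the counts of a gene per 1000000 counts of the library, are scaled by the TMM factors of edgeR, and a gene was called when its adjusted p from edgeR's quasi-likelihood test, Benjamini-Hochberg adjusted over 17139 genes, was under 0.05. SE is the standard error of a log2 fold change, taken as the size of the fold change divided by the square root of its quasi-likelihood F value.

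The neutrophil identity of the signal was checked on Ly6g, the defining surface marker of mouse neutrophils, which was low in every library: 0.895, 1.32, 2.67 and 2.26 CPM in LPS+TSLP replicates 1 to 4, 7.79, 4.79 and 4.44 CPM in the LPS libraries and 1.35, 2.19 and 1.8 CPM in Vehicle. Cxcr2, the main chemokine receptor of neutrophils, had 5.69, 48, 60.2 and 52 CPM in LPS+TSLP, 62.6, 84.7 and 104 CPM in LPS and 9.76, 28.2 and 75.6 CPM in Vehicle. Both markers were present in all 10 libraries, the Vehicle lungs included. Per kilobase of exon, Lcn2 had the highest level of the 37 genes in LPS lungs at 2915 CPM per kb, followed by S100a9 at 1269 and S100a8 at 798 CPM per kb.

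After LPS alone, 15 of the 37 genes rose and 0 fell against Vehicle, where 14.2% of all tested genes were called higher and 10.7% lower. The median log2 fold change of the 37 was 1.49, beside 0.01 over all tested genes. By role, 9 of 18 mature genes (median 1.93) and 4 of 4 oxidase subunits (median 1.55) were called higher. So were 1 of 4 adhesion genes (median 0.01), 1 of 7 secondary granule genes (median −0.26) and 0 of 4 primary granule genes (median −1.87). With so few genes, the counts of these adhesion and granule sets cannot be told from the 14.2% over all tested genes. The LPS libraries were all above the Vehicle ones in 21 genes and all below them in 3, where 24.7% and 25.1% of all tested genes did so. Without LPS+TSLP replicate 1, which is in neither group but enters the filter, the scaling and the shared estimate of spread, 21 genes were called higher and 1 lower, beside 17.5% and 14.4% of all tested genes. With all 10 libraries the DESeq2 Wald test called 20 higher and 0 lower (17.6% and 14.6% of all genes it tested) and limma-voom 18 and 0 (13.1% and 11.5%), and edgeR on the LPS and Vehicle libraries alone called 20 higher and 3 lower (16.5% and 13.3%). Adipocyte markers moved in the same comparison. Of 4 that could be tested 2 fell after LPS, Cidec (log2 −2.24, SE 0.42, edgeR adjusted p = 0.0056) and Plin1 (−3.77, SE 1.06, edgeR adjusted p = 0.026), and the summed level of all 6 listed was 8.97 to 19.9 CPM in LPS+TSLP, 8.74 to 19.8 CPM in LPS and 38.5 to 223 CPM in Vehicle. Their part in the neutrophil values was not tested.

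**Figure D1:**
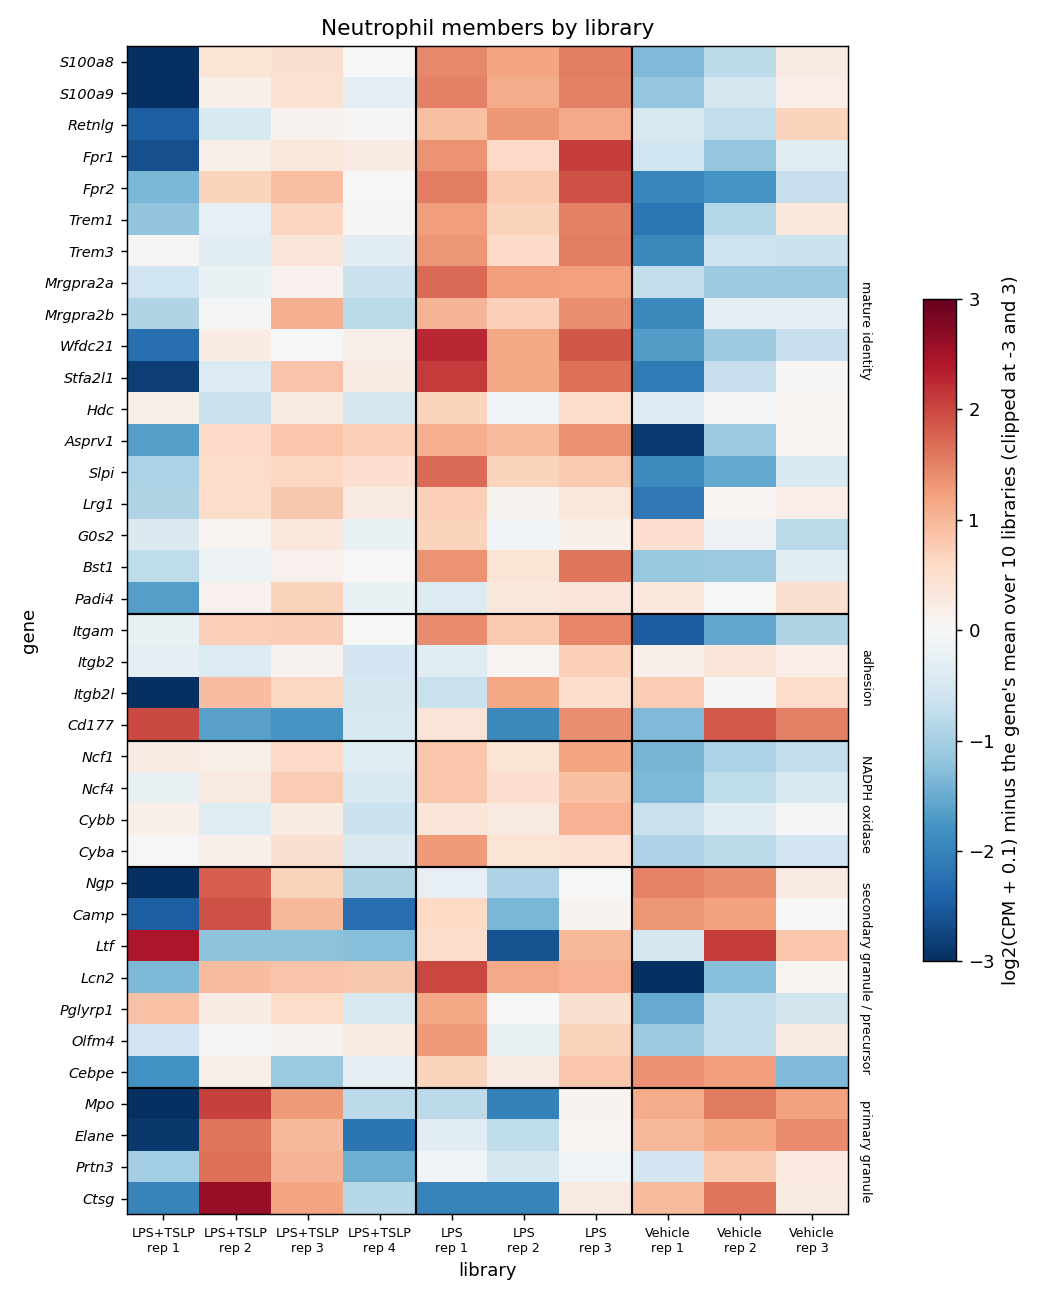
Each of the 37 genes in each of 10 libraries, as log2(CPM + 0.1) minus the gene's mean over the libraries, clipped at −3 and 3; rows run by role and columns by group. The LPS columns are red over most mature rows and over the oxidase rows. Vehicle replicate 1 holds the lowest value of 16 genes and LPS+TSLP replicate 1 that of 14. LPS+TSLP replicate 2 holds the highest value of 6 of the 11 granule and precursor genes.

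S100a8 and S100a9 encode the 2 chains of calprotectin, the most abundant protein pair of the neutrophil cytosol. They lie near each other on chromosome 3 (GRCm38; S100a8 at 90668978 to 90670035 on the plus strand, S100a9 at 90692632 to 90695721 on the minus strand). S100a8 had 23.4, 279.7, 293 and 210.4 CPM in LPS+TSLP replicates 1 to 4, 572, 481 and 607 CPM in LPS and 84.4, 123 and 249.6 CPM in Vehicle. S100a9 had 31.8, 283, 349 and 208 CPM in LPS+TSLP, 721, 549 and 717 CPM in LPS and 113, 177 and 291 CPM in Vehicle. The LPS libraries were above all others for both genes, and LPS+TSLP replicate 1 was below all others. In LPS against Vehicle the log2 fold changes were 1.86 (SE 0.69, edgeR adjusted p = 0.0686) for S100a8 and 1.77 (SE 0.64, edgeR adjusted p = 0.063) for S100a9, so neither was called. Both were called by the DESeq2 Wald test with all libraries (adjusted p = 0.013 and 0.0118), by edgeR on the LPS and Vehicle libraries alone (0.00984 and 0.00831), and by edgeR without LPS+TSLP replicate 1 (0.00383 and 0.00391), at nearly the same size each time (1.87 to 1.89 and 1.78 to 1.8). The pair kept step: the ratio of S100a9 to S100a8 CPM was 1.14 ± 0.17 in LPS+TSLP (n = 4), 1.19 ± 0.06 in LPS (n = 3) and 1.32 ± 0.14 in Vehicle (n = 3), as mean ± SD.

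The promoters of this pair are shown beside those of Ngp and Mpo, a secondary and a primary granule gene. Their LPS libraries all lay below the Vehicle ones, as in 25.1% of all tested genes. The sequences are RefSeq's on GRCm38.p6, 250 bases before to 50 after the start, 5′ to 3′ on the gene's strand: S100a8 at chr3:90668821-90669120 on the plus strand, S100a9 at chr3:90695672-90695971 on the minus strand, Ngp at chr9:110419558-110419857 on the plus strand and Mpo at chr11:87793534-87793833 on the plus strand. Capitals mark matches on either strand to TTNNGNAA, a form of the site of C/EBP factors, which drive granulocyte genes, and to GAGGAA, the core site of PU.1, a myeloid factor.
S100a8: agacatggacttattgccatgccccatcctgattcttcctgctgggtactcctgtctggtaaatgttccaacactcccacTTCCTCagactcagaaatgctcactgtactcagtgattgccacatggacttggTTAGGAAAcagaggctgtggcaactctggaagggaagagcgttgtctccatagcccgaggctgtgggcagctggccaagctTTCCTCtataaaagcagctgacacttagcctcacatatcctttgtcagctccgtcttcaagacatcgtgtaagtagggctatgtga
S100a9: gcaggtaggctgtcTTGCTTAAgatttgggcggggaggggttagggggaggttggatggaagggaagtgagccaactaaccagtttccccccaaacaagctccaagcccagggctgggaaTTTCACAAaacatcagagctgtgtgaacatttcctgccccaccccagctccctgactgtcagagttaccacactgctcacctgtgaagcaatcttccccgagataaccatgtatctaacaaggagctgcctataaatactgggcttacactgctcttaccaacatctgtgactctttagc
Ngp: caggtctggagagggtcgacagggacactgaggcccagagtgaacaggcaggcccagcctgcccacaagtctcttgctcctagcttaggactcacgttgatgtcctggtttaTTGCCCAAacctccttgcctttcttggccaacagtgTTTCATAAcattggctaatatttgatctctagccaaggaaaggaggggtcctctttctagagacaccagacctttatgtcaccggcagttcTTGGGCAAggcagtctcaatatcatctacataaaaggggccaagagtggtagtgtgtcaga
Mpo: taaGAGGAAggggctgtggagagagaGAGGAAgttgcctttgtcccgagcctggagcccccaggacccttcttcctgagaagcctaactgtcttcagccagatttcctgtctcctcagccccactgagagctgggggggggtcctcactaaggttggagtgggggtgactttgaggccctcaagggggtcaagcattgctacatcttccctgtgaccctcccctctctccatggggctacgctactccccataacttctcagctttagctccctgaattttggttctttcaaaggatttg
S100a8 held 1 match to TTNNGNAA and 2 to GAGGAA, S100a9 held 2 and 0, Ngp 3 and 0, and Mpo 0 and 2. Promoters of 31 of the 37 genes were in the RefSeq table. Of these 17 (54.8%) held TTNNGNAA, beside 40.7% of all 32851 promoters of the same length, and 19 (61.3%) held GAGGAA, beside 28.3%. A match describes these letters only and shows no binding. The starts are RefSeq's and differ from the gene positions given here for S100a8, Ngp and Mpo. For Mpo the window begins at 87793534 and the annotated gene at 87793581, so most of the window lies inside the gene.

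The formyl peptide receptors Fpr1 and Fpr2, which steer neutrophils toward bacterial peptides, both rose after LPS. Fpr2 (chromosome 17, 17887824 to 17893952) had 19.4, 79.8, 93.7 and 49.9 CPM in LPS+TSLP, 145, 85.9 and 189 CPM in LPS and 12.9, 14.6 and 30.9 CPM in Vehicle. Every LPS library was above every Vehicle library, by a log2 fold change of 2.84 (SE 0.55, edgeR adjusted p = 0.0066). Of the 50-base stretches of its transcripts 25.3% also occur in another gene, mainly Gm5966, so part of its reads could be left uncounted or assigned elsewhere. Fpr1 had 4.54, 32.6, 36.5 and 34 CPM in LPS+TSLP, 73.8, 43.1 and 122 CPM in LPS and 18.9, 12.9 and 22.8 CPM in Vehicle, and its log2 fold change in LPS against Vehicle was 2.13 (SE 0.62, edgeR adjusted p = 0.0291).

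The receptor Trem1, which amplifies myeloid inflammatory signals, and its neighbour Trem3 also rose. Trem3 had 9.33, 7.3, 11.9 and 7.19 CPM in LPS+TSLP, 22.8, 13.5 and 26.3 CPM in LPS and 2.3, 5.87 and 5.78 CPM in Vehicle (log2 2.16 in LPS against Vehicle, SE 0.40, edgeR adjusted p = 0.00516). Trem1 averaged 17.7 ± 8.52 CPM in LPS+TSLP (n = 4), 42 ± 11.5 CPM in LPS (n = 3) and 12.3 ± 9.54 CPM in Vehicle (n = 3), with a log2 fold change of 1.78 in LPS against Vehicle (SE 0.57, edgeR adjusted p = 0.0411). Bst1, an ectoenzyme on the neutrophil surface, had 32.5, 49.6, 59.9 and 54.7 CPM in LPS+TSLP, 140.3, 73.2 and 167 CPM in LPS and 25, 25.9 and 44.6 CPM in Vehicle (log2 1.99, SE 0.35, edgeR adjusted p = 0.00457).

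Small secreted and cytosolic proteins of the mature cell made up the next set. Wfdc21, a small protein of the whey acidic protein family, had 4.15, 23.6, 20.4 and 22.8 CPM in LPS+TSLP, 97.7, 45.1 and 73.2 CPM in LPS and 6.23, 9.39 and 12.4 CPM in Vehicle (log2 2.94 in LPS against Vehicle, SE 0.56, edgeR adjusted p = 0.00576). Slpi, an inhibitor of neutrophil elastase, averaged 133 ± 51.8 CPM in LPS+TSLP (n = 4), 236 ± 100.4 CPM in LPS (n = 3) and 48.4 ± 26.9 CPM in Vehicle (n = 3), and rose by 2.28 after LPS (SE 0.49, edgeR adjusted p = 0.00906). Stfa2l1, a stefin-like protease inhibitor, was lower throughout, at 3.67 ± 2.73 CPM in LPS+TSLP, 12.5 ± 4 CPM in LPS and 2.32 ± 1.54 CPM in Vehicle (log2 2.42, SE 0.77, edgeR adjusted p = 0.0402). The receptor Mrgpra2a was near the limit of counting, at 0.261 ± 0.0931, 1.08 ± 0.224 and 0.128 ± 0.0349 CPM in LPS+TSLP, LPS and Vehicle, with a log2 fold change of 3.01 in LPS against Vehicle (SE 0.59, edgeR adjusted p = 0.00662). Its close copy Mrgpra2b stood at 2.35 ± 1.73, 4.8 ± 1.17 and 1.37 ± 0.752 CPM (log2 1.8, SE 0.62, edgeR adjusted p = 0.0546). They share 87.9% and 83.1% of their 50-base stretches with another gene, almost all with each other, so the level of either is uncertain.

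The other mature genes were not called after LPS. Retnlg, a resistin-like protein of mouse neutrophils, had 8.31, 33.9, 50.5 and 47.8 CPM in LPS+TSLP, 87.8, 115 and 104 CPM in LPS and 34.2, 28 and 75.1 CPM in Vehicle (log2 1.16 in LPS against Vehicle, SE 0.54, edgeR adjusted p = 0.134). Asprv1, an aspartic protease, had a log2 fold change of 2 (SE 0.68, edgeR adjusted p = 0.0506) and averaged 32.3 ± 16.6 CPM in LPS+TSLP, 54.8 ± 8.57 CPM in LPS and 13.7 ± 11.5 CPM in Vehicle. Lrg1, a secreted leucine-rich glycoprotein also made by endothelium, averaged 398 ± 167, 425 ± 89.8 and 259 ± 162 CPM in the same order (log2 0.71 in LPS against Vehicle, SE 0.54, edgeR adjusted p = 0.345). Hdc, the histamine-forming decarboxylase, had 77.9 ± 24.8 CPM in LPS+TSLP, 112 ± 29.5 CPM in LPS and 78.8 ± 13 CPM in Vehicle. Hdc also marks mast cells and basophils. Of 8 of their markers Cpa3 reached 3.59 CPM, Cma1 3.15, Tpsb2 1.71, Prss34 1.07, Fcer1a 0.729, Ms4a2 0.544 and Mcpt8 0.32 CPM at most, each but Ms4a2 in a Vehicle library, while Gata2, which other lung cells express, was at 171 to 280.4 CPM. The summed level of the 8 was 235 to 283 CPM in LPS+TSLP, 191 to 236 CPM in LPS and 179 to 239 CPM in Vehicle, and their part in Hdc was not tested. G0s2, an inhibitor of fat breakdown, had 51.2 ± 12.3, 62.8 ± 17.7 and 49.7 ± 22 CPM in LPS+TSLP, LPS and Vehicle, and Padi4, the enzyme that citrullinates histones in extracellular traps, 5.66 ± 3.16, 6.46 ± 1.8 and 7.15 ± 1.2 CPM. Retnlg, Asprv1 and Mrgpra2b passed the threshold without LPS+TSLP replicate 1 (adjusted p = 0.0215, 0.0186 and 0.034) and with the LPS and Vehicle libraries alone (0.0358, 0.0413 and 0.0262). With all 10 libraries Asprv1 and Mrgpra2b also passed it by the DESeq2 Wald test (0.00727 and 0.0155) and limma-voom (0.0343 and 0.0365).

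**Figure D2:**
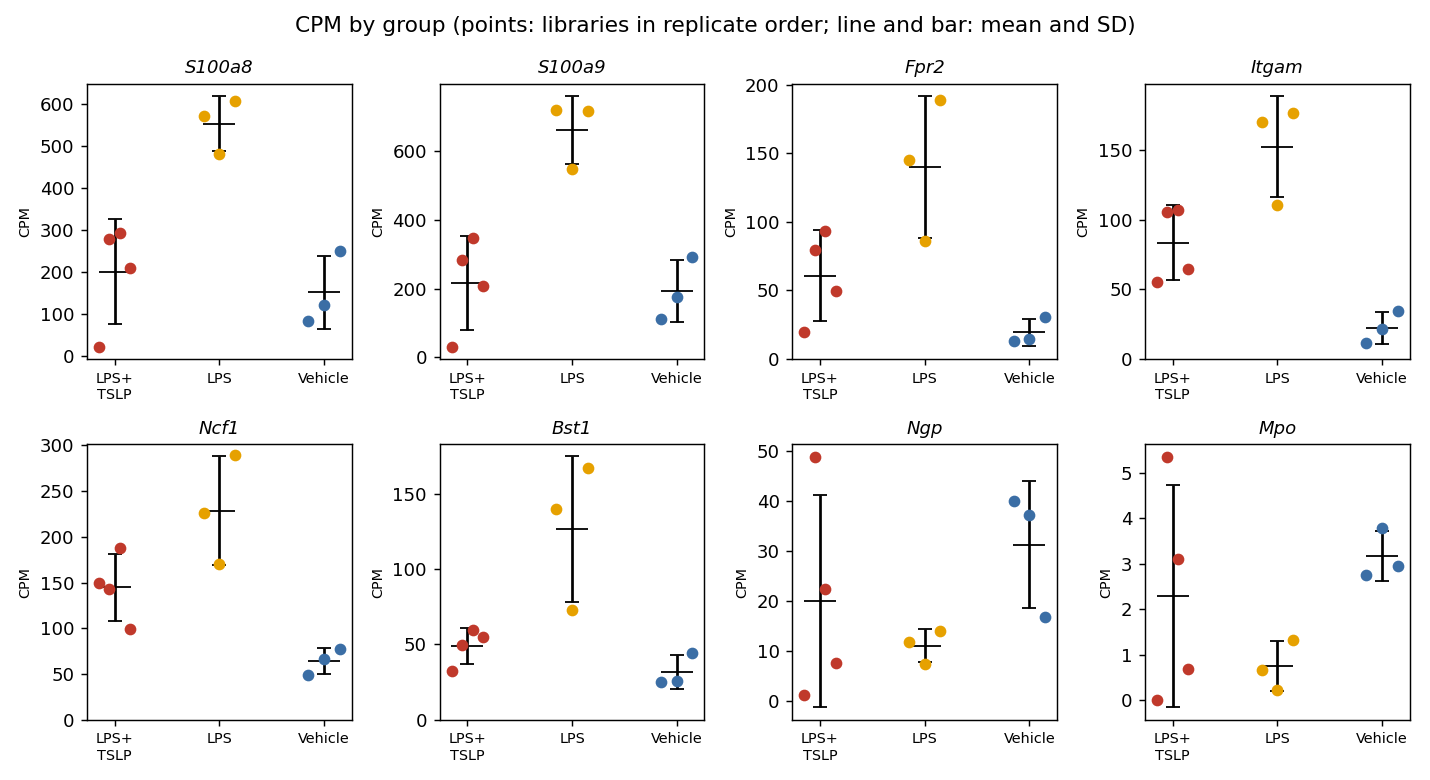
CPM of 8 of the genes by group; each point is a library, drawn in replicate order, and the line and bar are the mean and SD. The 3 LPS points of S100a8, Fpr2, Itgam, Ncf1 and Bst1 lie above all 3 Vehicle points, those of Ngp and Mpo lie below them, and LPS+TSLP replicate 1 is the lowest LPS+TSLP point of S100a8, S100a9, Fpr2, Itgam, Bst1, Ngp and Mpo.

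Among the adhesion genes Itgam stood alone. It encodes the alpha chain of the integrin Mac-1 and had 55.6, 106, 107 and 65 CPM in LPS+TSLP, 170.2, 111 and 177 CPM in LPS and 11.3, 21.7 and 34.3 CPM in Vehicle. The LPS libraries were above every Vehicle library, with a log2 fold change of 2.77 (SE 0.41, edgeR adjusted p = 0.00256). Itgam (chromosome 7, 128062640 to 128118491) overlaps the annotated gene Gm49368 on the same strand over 68.7% of its exons. Reads there could be left out of its count or given to Gm49368, so its level is uncertain. Itgb2, the beta chain that pairs with it, had 165 ± 34.2 CPM in LPS+TSLP, 230.5 ± 88.6 CPM in LPS and 234 ± 17.9 CPM in Vehicle (log2 −0.02 in LPS against Vehicle, SE 0.28, edgeR adjusted p = 0.963; 0.21 after removal of the GC trend). Itgb2 is carried by other leukocytes as well. Itgb2l, a beta-chain relative, stood at 1.72 ± 1.4, 2.36 ± 1.37 and 2.29 ± 0.585 CPM in LPS+TSLP, LPS and Vehicle.

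The NADPH oxidase makes the superoxide of the respiratory burst, and all 4 subunit genes rose after LPS. Ncf1, the cytosolic organiser p47phox, had 149, 143, 188 and 98.8 CPM in LPS+TSLP, 226, 170.2 and 289 CPM in LPS and 48.6, 66.2 and 77.2 CPM in Vehicle (log2 1.83 in LPS against Vehicle, SE 0.29, edgeR adjusted p = 0.00303). Ncf4, the cytosolic p40phox, averaged 54.6 ± 21.1 CPM in LPS+TSLP (n = 4), 82 ± 11.8 CPM in LPS (n = 3) and 27.6 ± 8.07 CPM in Vehicle (n = 3), a rise of 1.57 after LPS (SE 0.33, edgeR adjusted p = 0.00833). Cyba, the membrane subunit p22phox, averaged 264 ± 67, 428 ± 152 and 147 ± 18.8 CPM in LPS+TSLP, LPS and Vehicle (log2 1.54 in LPS against Vehicle, SE 0.29, edgeR adjusted p = 0.00605). Cybb, the catalytic membrane subunit, averaged 169 ± 47.1, 279 ± 89.8 and 148 ± 31.7 CPM in the same groups and had the smallest called change of the 37 genes (log2 0.92, SE 0.3, edgeR adjusted p = 0.045). Of 11 monocyte markers 4 rose after LPS (Ccr2, Fcgr4, Treml4 and Ifi205) and 0 fell, beside 14.2% and 10.7% of all tested genes. The 11 had a median log2 fold change of 0.97. Their mean log2 CPM was 5.67 to 6.65 in LPS+TSLP, 6.47 to 6.9 in LPS and 4.99 to 5.81 in Vehicle, so that every LPS library lay above every Vehicle library. Their summed level went the other way, at 1943 to 3112 CPM in LPS+TSLP, 2136 to 2697 CPM in LPS and 2734 to 2945 CPM in Vehicle, and most of that sum was Ace in Vehicle (2160.2 to 2360.1 CPM), which endothelium also makes. Their part in the integrin and oxidase values was not tested.

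Of these 15 calls 10 held whichever library was left out: Fpr2, Trem3, Mrgpra2a, Wfdc21, Slpi, Bst1, Itgam, Ncf1, Ncf4 and Cyba. The other 5 were lost without one or another library: Fpr1 without LPS replicate 1 or 3 or Vehicle replicate 1 or 2 (adjusted p up to 0.102), Trem1 and Stfa2l1 without LPS+TSLP replicate 2, any LPS library or Vehicle replicate 1 or 2 (up to 0.127 and 0.13), Pglyrp1 without LPS replicate 1 or Vehicle replicate 1 or 2 (up to 0.0924), and Cybb without LPS+TSLP replicate 2, LPS replicate 1 or 3 or any Vehicle library (up to 0.172). Without library scaling Trem1 and Cybb were lost (adjusted p = 0.0526 and 0.064), with upper quartile factors Cybb (0.0538), without the filter on low counts Fpr1, Trem1 and Stfa2l1 (0.127, 0.14 and 0.103) while Mrgpra2a was left untested where 3 libraries had to reach 1 CPM, and with the trend of counts with GC content removed Stfa2l1 (log2 1.64, adjusted p = 0.11) and Cybb (log2 0.33, adjusted p = 0.454).

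The granule and precursor genes split after LPS, with a median log2 fold change of −0.90 over the 11 that was −0.16 without Vehicle replicate 2 and −0.38 without LPS replicate 2. Pglyrp1, a peptidoglycan-binding granule protein, rose: it had 127, 80.5, 101 and 49.4 CPM in LPS+TSLP, 155, 68.5 and 96.4 CPM in LPS and 24.2, 42.2 and 47.3 CPM in Vehicle (log2 1.49 in LPS against Vehicle, SE 0.39, edgeR adjusted p = 0.0195). Lcn2, the iron-siderophore trap lipocalin 2, had 1092, 5241, 5069 and 4877 CPM in LPS+TSLP, 11127, 6064 and 5744 CPM in LPS and 152, 1148 and 2871 CPM in Vehicle. The LPS libraries did not overlap the Vehicle ones, but Vehicle itself spanned a wide range, and the log2 fold change of 2.46 (SE 0.85, edgeR adjusted p = 0.0547) was not called. Lcn2 was called with all libraries by the DESeq2 Wald test (2.47, adjusted p = 0.00377) and limma-voom (3.21, adjusted p = 0.0357), and by edgeR without LPS+TSLP replicate 1 (2.48, adjusted p = 0.0352) or Vehicle replicate 3 (3.58, adjusted p = 0.0221). Olfm4, carried by a subset of neutrophils, had 1.65 ± 0.398, 2.79 ± 1.39 and 1.24 ± 0.688 CPM in LPS+TSLP, LPS and Vehicle (log2 1.17 in LPS against Vehicle, SE 0.52, edgeR adjusted p = 0.119).

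Of the 11 granule and precursor genes 8 had negative log2 fold changes after LPS, and the other 3, Pglyrp1, Lcn2 and Olfm4, had positive ones. Calls among the 8 depended on which libraries were fitted. Ngp, a secondary granule protein (chromosome 9, 110419747 to 110423012), had 1.15, 48.9, 22.4 and 7.56 CPM in LPS+TSLP, 11.9, 7.45 and 14 CPM in LPS and 40, 37.2 and 16.8 CPM in Vehicle (log2 −1.49 in LPS against Vehicle, SE 0.88, edgeR adjusted p = 0.232). Mpo, the myeloperoxidase of primary granules (chromosome 11, 87793581 to 87804413), had 0, 5.35, 3.1 and 0.671 CPM in LPS+TSLP, 0.669, 0.226 and 1.33 CPM in LPS and 2.75, 3.79 and 2.95 CPM in Vehicle (log2 −2.08, SE 1.11, edgeR adjusted p = 0.188). Elane, neutrophil elastase, had 0, 2.13, 1.36 and 0.061 CPM in LPS+TSLP, 0.487, 0.338 and 0.666 CPM in LPS and 1.35, 1.55 and 1.86 CPM in Vehicle (log2 −1.66, SE 1.09, edgeR adjusted p = 0.282). In these 3 of the 11 genes every LPS library lay below every Vehicle library, a share near the 25.1% of all tested genes that did so. None of the 3 was called with all 10 libraries by edgeR, the DESeq2 Wald test or limma-voom. With the LPS and Vehicle libraries alone edgeR called all 3 lower: Ngp (−1.47, adjusted p = 0.0192), Mpo (−2.06, adjusted p = 0.0283) and Elane (−1.63, adjusted p = 0.0296). They were the only ones of the 37 genes called lower in that fit, beside 13.3% of all genes it tested. Mpo was also called lower without LPS+TSLP replicate 1 (−2.07, adjusted p = 0.0481). An opposite-strand gene, Gm11505, covers 15% of the exons of Mpo, and strand use in counting is not given, so its low counts are uncertain.

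The remaining precursor genes overlapped between LPS and Vehicle. Camp, the cathelicidin, had 0.575, 14, 7.24 and 0.671 CPM in LPS+TSLP, 5.6, 1.35 and 3.94 CPM in LPS and 9.37, 8.59 and 3.71 CPM in Vehicle (log2 −0.99 in LPS against Vehicle, SE 0.99, edgeR adjusted p = 0.482). Prtn3, proteinase 3, averaged 4.13 ± 3.74 CPM in LPS+TSLP, 2.3 ± 0.385 CPM in LPS and 3.29 ± 1.48 CPM in Vehicle (log2 −0.51, SE 0.73, edgeR adjusted p = 0.634), and Plppr3 overlaps 9.2% of its exons on the other strand. Ctsg, cathepsin G, had 0, 2.36, 0.817 and 0.122 CPM in LPS+TSLP, 0, 0 and 0.388 CPM in LPS and 0.673, 1.12 and 0.382 CPM in Vehicle (log2 −2.4, SE 1.48, edgeR adjusted p = 0.251). A library at 0 counts allows up to 3 counts, which is 0.192 CPM in LPS+TSLP replicate 1 and 0.183 and 0.169 CPM in LPS replicates 1 and 2, for counting error only. Cebpe, the factor that drives secondary granule genes, was at 0.128 to 0.805 CPM in LPS+TSLP, 0.846 to 1.33 CPM in LPS and 0.218 to 1.96 CPM in Vehicle.

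**Figure D3:**
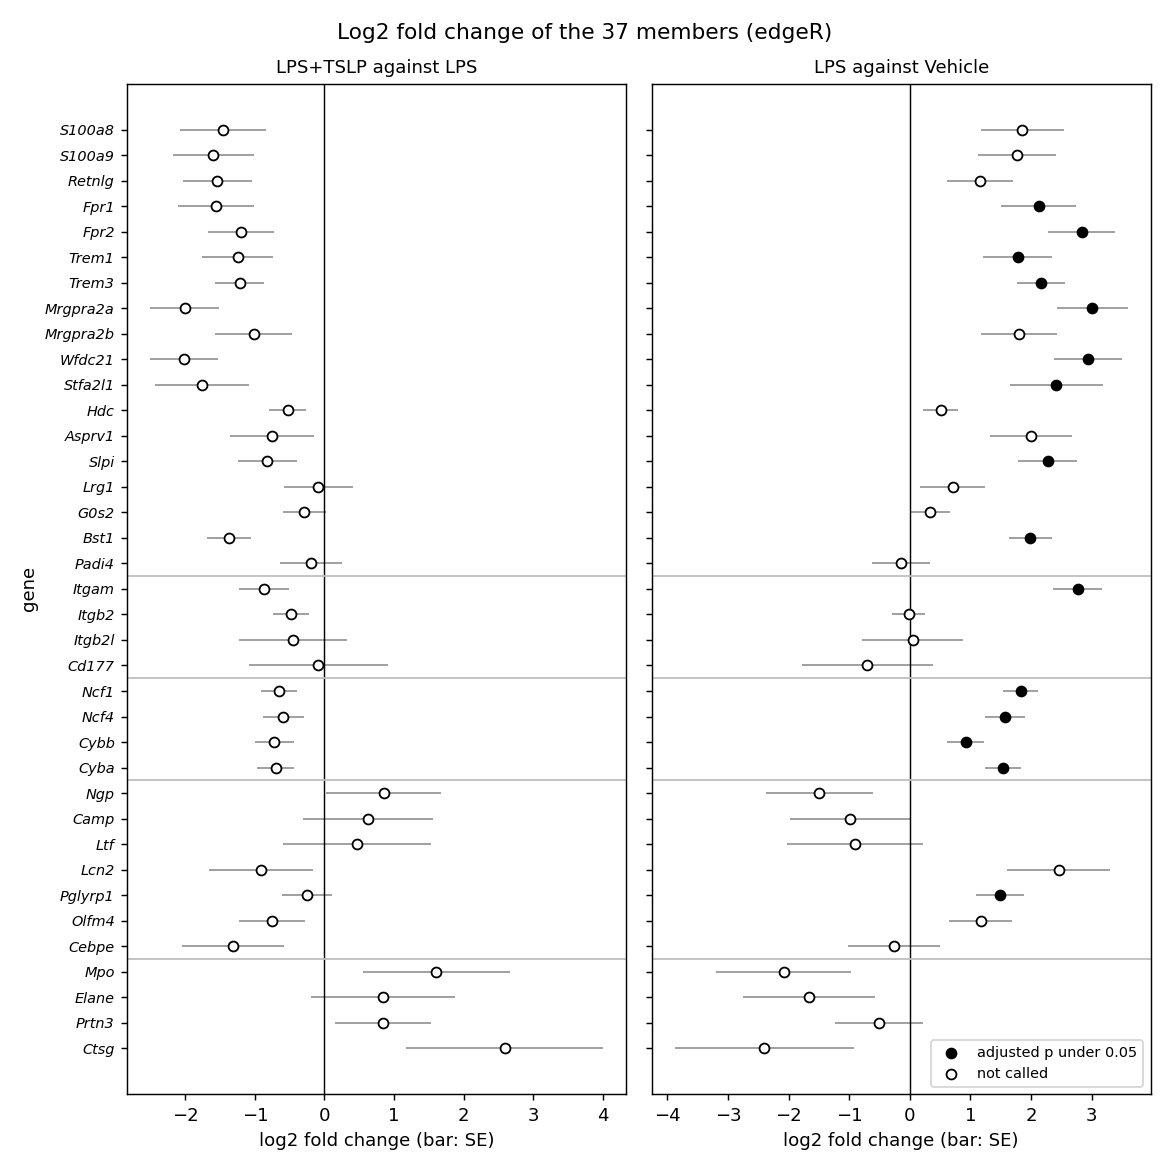
Log2 fold change of each of the 37 genes from edgeR, with its SE as a bar, for LPS+TSLP against LPS (left) and LPS against Vehicle (right); filled points were called and grey lines part the roles. In LPS against Vehicle 15 points are filled, all above 0, and the 4 primary granule genes lie below 0; in LPS+TSLP against LPS 0 points are filled, all 18 mature genes lie below 0 and the 4 primary granule genes above 0.

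LPS+TSLP against LPS asked what TSLP pretreatment added. With edgeR 0 of the 37 genes were called, as were 0.0% of all 17139 tested genes. At an unadjusted p under 0.05 there were 15 of the 37, all lower in LPS+TSLP, beside 8.1% of all tested genes in either direction. The DESeq2 Wald test called 2 of the 37, both lower (0.227% of all genes it tested), and limma-voom called 0. In 16 genes every LPS+TSLP library lay below every LPS library and in 0 genes above, where 3.54% and 3.88% of all tested genes did so. Without LPS+TSLP replicate 1 the count was again 16 below and 0 above (5.82% and 7.78% of all tested genes), and edgeR again called 0. The median log2 fold change was −0.72 over the 37, −1.24 over the mature genes, −0.68 over the oxidase subunits and −0.47 over the adhesion genes, beside 0.02 over all tested genes. Without LPS+TSLP replicate 1 the median over the 37 was −0.68.

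Of the mature genes 12 of 18 had no overlap, all lower in LPS+TSLP, and all 18 had a negative log2 fold change, where 52.2% of all tested genes had a positive one. The 2 genes called by DESeq2 were Wfdc21 (edgeR log2 −2.02, SE 0.48, unadjusted p = 0.00145, edgeR adjusted p = 0.589; DESeq2 adjusted p = 0.0204) and Bst1 (edgeR log2 −1.37, SE 0.32, unadjusted p = 0.0011, edgeR adjusted p = 0.589; DESeq2 adjusted p = 0.0277). Many genes share an adjusted p because the Benjamini-Hochberg adjustment gives ties. For Bst1 the 4 LPS+TSLP libraries reached at most 59.9 CPM, against at least 73.2 CPM in LPS. S100a8 and S100a9 were at −1.46 (SE 0.62, edgeR adjusted p = 0.602) and −1.6 (SE 0.58, edgeR adjusted p = 0.589), Retnlg at −1.54 (SE 0.5, edgeR adjusted p = 0.589) and Fpr1 at −1.56 (SE 0.55, edgeR adjusted p = 0.589). LPS+TSLP replicate 1 was the lowest of its group for all 4, but replicates 2 to 4 were also below every LPS library. Lrg1 was at −0.09 with all libraries and at 0.14 without LPS+TSLP replicate 1.

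The oxidase subunits of LPS+TSLP lungs averaged between LPS and Vehicle. Their log2 fold changes in LPS+TSLP against LPS ran from −0.72 for Cybb to −0.59 for Ncf4, and only Cybb had no overlap between LPS+TSLP and LPS. Itgam was at −0.87 (SE 0.36, edgeR adjusted p = 0.599), with at most 107 CPM in LPS+TSLP against at least 111 CPM in LPS.

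The primary granule genes had positive log2 fold changes in LPS+TSLP against LPS (median 1.23), none of them called, and 0 of 4 had groups without overlap. Mpo was at 1.61 (SE 1.06, edgeR adjusted p = 0.734), Ctsg at 2.59 (SE 1.42, edgeR adjusted p = 0.684), Elane at 0.84 (SE 1.04, edgeR adjusted p = 0.867) and Prtn3 at 0.84 (SE 0.69, edgeR adjusted p = 0.787). These means rest on LPS+TSLP replicates 2 and 3, which had 5.35 and 3.1 CPM of Mpo, whereas replicates 1 and 4 had 0 and 0.671 CPM. Without LPS+TSLP replicate 2 Elane was at −0.03, Ngp at −0.09 in place of 0.85, and Camp at −0.34 in place of 0.63. The 7 secondary granule genes had a median of −0.25, with 3 log2 fold changes positive and 4 negative, and 0 were called. In 2 of the 7, Lcn2 (−0.91) and Cebpe (−1.32), every LPS+TSLP library lay below every LPS library, and in 0 above. The median over the 11 granule and precursor genes was 0.63, and it was −0.09 without LPS+TSLP replicate 2, 0.24 without LPS replicate 2 and 1.01 without LPS+TSLP replicate 1 or replicate 4.

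Against Vehicle, LPS+TSLP lungs had 3 genes higher and 0 lower of 37, where 8.82% of all tested genes were called higher and 5.35% lower. They were Itgam (log2 1.89, SE 0.38, edgeR adjusted p = 0.0116), Ncf1 (1.18, SE 0.27, edgeR adjusted p = 0.0183) and Pglyrp1 (1.24, SE 0.37, edgeR adjusted p = 0.0467). The median log2 fold change was 0.42 over the 37 and 0.62 over the mature genes, of which 0 of 18 were called. LPS+TSLP and LPS lungs were compared with the same Vehicle libraries, and side by side their log2 fold changes against Vehicle were 1.64 and 2.84 for Fpr2, 0.63 and 1.99 for Bst1, 1.18 and 1.83 for Ncf1 and 1.24 and 1.49 for Pglyrp1. Every LPS+TSLP library was above Vehicle in 6 genes and below it in 1, where 15.7% and 15.9% of all tested genes did so.

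Without LPS+TSLP replicate 1 more of the mature genes stood apart from Vehicle. There were 14 genes with all LPS+TSLP libraries above Vehicle, 9 of them mature, and 2 below (22.7% and 21.8% of all tested genes). Called were 6 higher and 0 lower, beside 11.4% and 7.9% of all tested genes: Itgam, Ncf1, Fpr2 (log2 1.94, adjusted p = 0.0082), Slpi (1.71, adjusted p = 0.0131), Wfdc21 (1.25, adjusted p = 0.019) and Ncf4 (1.1, adjusted p = 0.0359), while Pglyrp1 missed the threshold (1.03, adjusted p = 0.0715). The count of genes called higher also depended on other libraries: it was 0 without Vehicle replicate 2, 1 without Vehicle replicate 1 or LPS+TSLP replicate 3, 2 without LPS+TSLP replicate 2 or LPS replicate 3, 5 without LPS replicate 1, 6 without LPS+TSLP replicate 4, and 5 higher with 1 lower, Cebpe (log2 −2.1, adjusted p = 0.0496), without Vehicle replicate 3. With all 10 libraries the DESeq2 Wald test called 7 higher and 0 lower (13.4% and 9.52% of all genes it tested), among them Fpr2 (1.65, adjusted p = 0.00598), Slpi (1.46, adjusted p = 0.00713) and Ncf4 (1, adjusted p = 0.0154).

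Set against each other within a library, mature and precursor levels were on average farthest apart in LPS lungs. The level of a set is the mean log2 CPM of its genes, and the mature level minus the precursor level was 1.94, 0.99, 2.03 and 2.8 in LPS+TSLP replicates 1 to 4, 2.96, 3.51 and 2.84 in LPS and 0.75, 0.51 and 1.59 in Vehicle. The LPS libraries were above all others, though the lowest of them (2.84) was next to LPS+TSLP replicate 4 (2.8), and LPS+TSLP overlapped Vehicle through replicate 2. The mature level alone was 4.53 ± 0.85 in LPS+TSLP (n = 4), 5.82 ± 0.31 in LPS (n = 3) and 4.02 ± 0.58 in Vehicle (n = 3), as mean ± SD. It overlapped between LPS+TSLP and Vehicle only through LPS+TSLP replicate 1. Replicates 2 to 4 were at 4.82, 5.27 and 4.72, against 3.45 to 4.6 in Vehicle. The precursor level was 2.59 ± 1.14, 2.72 ± 0.66 and 3.07 ± 0.41 in the same groups, with the widest spread in LPS+TSLP, from 1.36 in replicate 1 to 3.83 in replicate 2. With Ltf, Lcn2 and Pglyrp1 taken out of the precursor set, a choice made after their values were seen, the difference was 3.99 ± 1.08 in LPS+TSLP, 5.26 ± 0.31 in LPS and 2.54 ± 0.83 in Vehicle, and LPS+TSLP replicate 4 and LPS replicate 3 were equal at 4.95. In LPS+TSLP replicate 1 both levels were low, the mature one at 3.3 and the precursor one at 1.36, so its difference of 1.94 sat inside the range of its group.

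**Figure D4:**
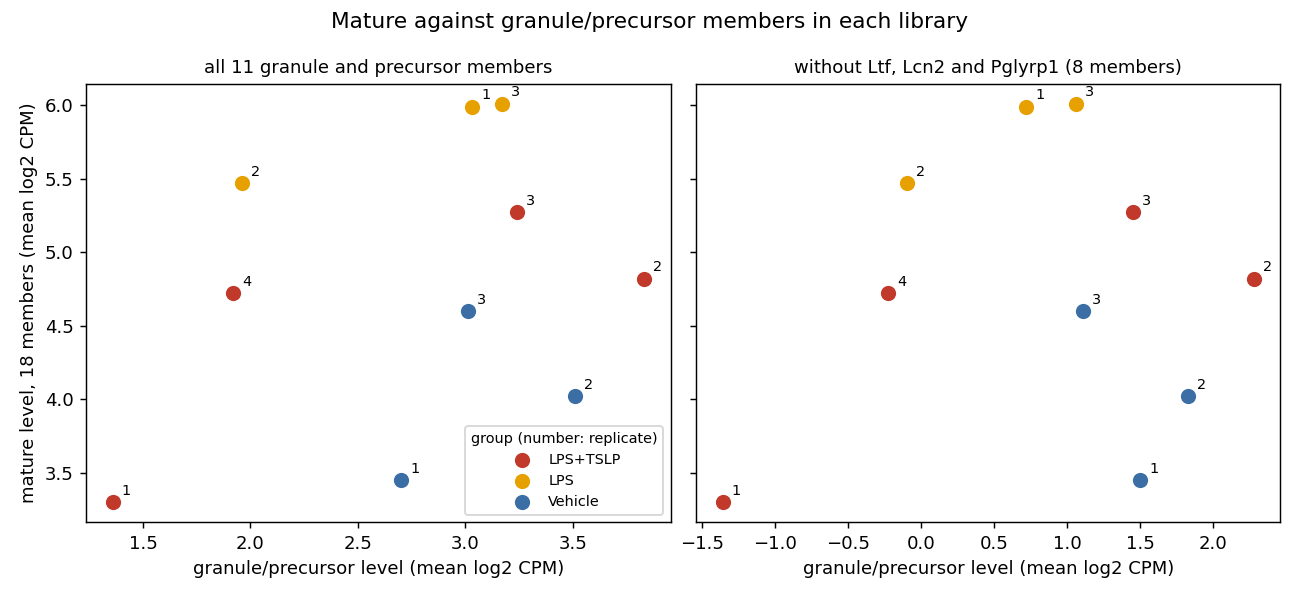
Mean log2 CPM of the 18 mature genes (vertical) against that of the granule and precursor genes (horizontal) in each library, with all 11 genes (left) and without Ltf, Lcn2 and Pglyrp1 (right); numbers are replicates. The LPS libraries lie highest, at 5.47 to 6.01, and the LPS+TSLP libraries spread from 3.3 to 5.27 vertically and from 1.36 to 3.83 horizontally in the left panel.

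Ltf, the lactoferrin of secondary granules, and Cd177, a neutrophil surface glycoprotein, followed no group. Ltf had 437, 35.2, 34.7 and 33.3 CPM in LPS+TSLP, 116, 13.1 and 162 CPM in LPS and 56.1, 342 and 144 CPM in Vehicle (log2 0.47 in LPS+TSLP against LPS, SE 1.06, edgeR adjusted p = 0.933, and −1.51 without LPS+TSLP replicate 1). Cd177 had 245, 20.1, 18.1 and 44.7 CPM in LPS+TSLP, 81.7, 16.2 and 164 CPM in LPS and 24.6, 222 and 178 CPM in Vehicle (log2 −0.09 in LPS+TSLP against LPS, SE 1, edgeR adjusted p = 0.99, with the sign turned under upper quartile scaling). Both were highest in LPS+TSLP replicate 1 and next in Vehicle replicate 2. Of 7 airway secretory markers Bpifb1, Muc5b and Scgb3a1 were highest and next highest in the same libraries. The other 4 were not: Scgb3a2 was highest in LPS+TSLP replicate 1 (1116 CPM) but next in Vehicle replicate 1 (428 CPM), Bpifa1 was highest in Vehicle replicate 2 (767 CPM), Cyp2f2 in Vehicle replicate 1 (1421 CPM) and Scgb1a1 in LPS replicate 1 (26312 CPM). Bpifb1, an airway secretory protein, had 1184, 5.35, 55.5 and 8.53 CPM in LPS+TSLP, 75.8, 4.4 and 144 CPM in LPS and 11.6, 636 and 114 CPM in Vehicle. Muc5b, an airway mucin, had 1367, 11.6, 40.4 and 43.7 CPM in LPS+TSLP, 75, 9.03 and 185 CPM in LPS and 28, 864 and 223 CPM in Vehicle. Of the 7 markers 0 were called in any comparison, and their summed level was 10436 to 27604 CPM in LPS+TSLP, 9653 to 27239.6 CPM in LPS and 10606 to 17204 CPM in Vehicle. Most of that sum was Scgb1a1 in every library (8556 to 26312 CPM). The mean log2 CPM of the 7 was 5.65 to 10.78 in LPS+TSLP, 4.67 to 8.19 in LPS and 7.15 to 9.82 in Vehicle. The part of these markers in Ltf and Cd177 was not tested.

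**Figure D5:**
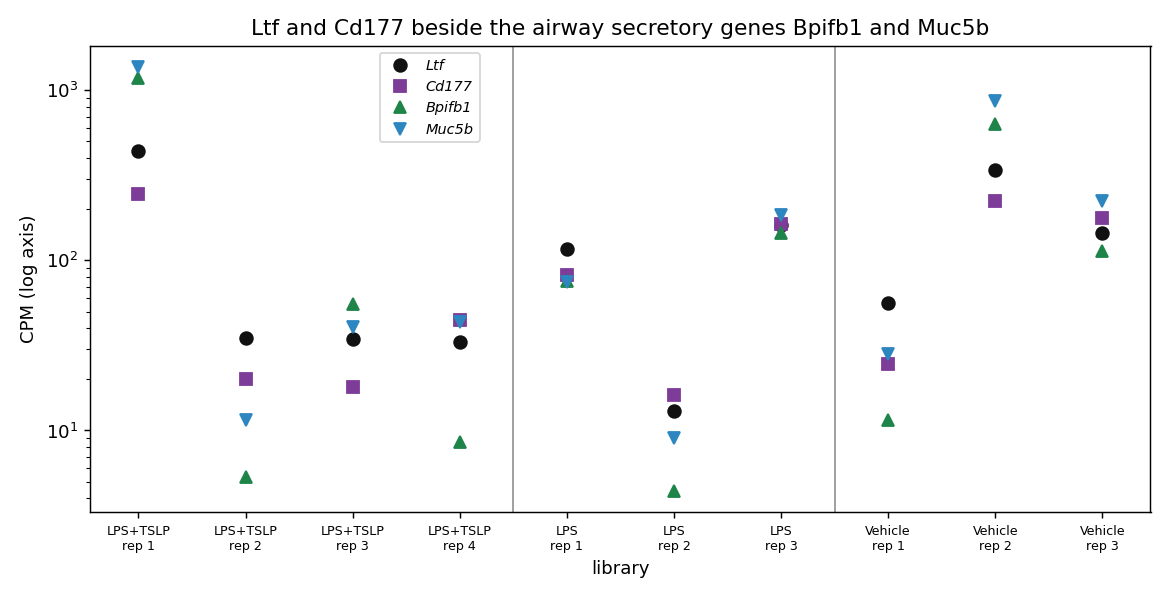
CPM on a log axis of Ltf, Cd177 and the airway secretory genes Bpifb1 and Muc5b in each of 10 libraries. All 4 genes peak in LPS+TSLP replicate 1 and are next highest in Vehicle replicate 2, while the lowest library of each is LPS replicate 2.

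Genes of the same cells outside the 37 were read from other lists. Of 24 further mature neutrophil genes 11 rose after LPS and 0 fell, beside 14.2% and 10.7% of all tested genes. The median log2 fold change of the 24 was 1.17, and Ly6g was among the 11 (1.67, SE 0.45, edgeR adjusted p = 0.0224). The C-type lectins Clec4d and Clec4e, which sense mycobacterial glycolipids, rose by 3.27 (SE 0.70, edgeR adjusted p = 0.00936) and 3.44 (SE 0.82, edgeR adjusted p = 0.0138), and the myeloid membrane protein Mcemp1 by 1.23 (SE 0.27, edgeR adjusted p = 0.0101) and the IL-36 cytokine gene Il1f9 by 3.02 (SE 0.72, edgeR adjusted p = 0.0134). Cxcr2 was at 1.15 (SE 0.76, edgeR adjusted p = 0.284), the growth factor receptor gene Csf3r at 0.58 (SE 0.63, edgeR adjusted p = 0.523), and the granule proteases Mmp8 and Mmp9 at 1.19 (SE 0.52, edgeR adjusted p = 0.114) and 0.11 (SE 0.79, edgeR adjusted p = 0.931). With TSLP before LPS 0 of the 24 were called, and all 24 log2 fold changes were negative (median −0.79), with Ly6g at −1.66 (SE 0.415, edgeR unadjusted p = 0.00195, adjusted p = 0.589). Against Vehicle LPS+TSLP had 0 called and a median of 0.12.

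Of 13 recruitment genes 7 rose after LPS and 0 fell (median log2 fold change 2.54), beside 14.2% and 10.7% of all tested genes. The chemokines Cxcl2 and Cxcl3 had 25.5 to 499 and 10.7 to 139.9 CPM in LPS+TSLP, 332 to 708 and 141 to 183 CPM in LPS and 0.281 to 39.7 and 0.337 to 16 CPM in Vehicle. Csf2 and Tnf, cytokines that prime neutrophils, rose by 2.56 (SE 0.51, edgeR adjusted p = 0.00684) and 3.47 (SE 0.79, edgeR adjusted p = 0.0116). Of the 13, 0 were called in LPS+TSLP against LPS (median −1.18). In LPS+TSLP against Vehicle 3 were higher and 0 lower (median 1.27), beside 8.82% and 5.35% of all tested genes.

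Of 15 further precursor genes 12 could be tested; Ms4a3, Fcnb and Prss57 had too few counts. After LPS 2 rose, the proliferation gene Mki67 (2.61, SE 0.40, edgeR adjusted p = 0.00288) and the granule membrane gene Cd63 (1.47, SE 0.33, edgeR adjusted p = 0.0104). Another 2 fell, the myeloid factor Cebpa (−1.26, SE 0.20, edgeR adjusted p = 0.00319) and the stem cell factor receptor gene Kit (−1.39, SE 0.24, edgeR adjusted p = 0.00409). These 4 genes are expressed by many other lung cells. With so few genes, the counts cannot be told from the 14.2% called higher and 10.7% called lower over all tested genes. Top2a, another proliferation gene of the list, was at −0.19 (SE 0.415, edgeR adjusted p = 0.766). Over the 12 tested genes 5 log2 fold changes were positive and 7 negative after LPS (median −0.16). In LPS+TSLP against LPS 6 were positive and 6 negative (median −0.03), and 0 were called. Ms4a3, a marker of granulocyte and monocyte progenitors, had 0, 0.747, 0.762 and 0 CPM in LPS+TSLP, 0, 0.0564 and 0.277 CPM in LPS and 0.168, 0.0533 and 0.327 CPM in Vehicle. For Ms4a3, a gene named after its values were seen, LPS+TSLP replicates 2 and 3 were above replicates 1 and 4, as for Mpo, Elane and Ctsg. In the same list this also held for Fcnb, Mki67, Prss57, Rab44 and Serpinb1a. It did not hold for Chil3, Gfi1, Cebpa, Myb, Top2a, Kit, Cd34, Flt3 and Cd63. Myb, for example, had 36, 7.3, 5.17 and 6.58 CPM in LPS+TSLP replicates 1 to 4.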

How the data were processed

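RNA of whole mouse lung was sequenced in 10 libraries. The deposited values are raw counts of reads for each gene, whole numbers with no normalization. The submitters' processing notes list CASAVA, HISAT2 and HTSeq 0.6.0 and the build GRCm38/mm10; the annotation release and strand setting are not given in the sources used here. Genes were tied to their annotation by Ensembl identifier (54495 of 54532, 99.93%, in GENCODE M21). With total counts of 16175172 to 18374461 per library, a count of 0 allows up to 3 counts, for counting error only.

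Libraries were grouped by the treatment in the labels. Counts were filtered with filterByExpr, scaled by TMM and fitted with edgeR 4.0.16 quasi-likelihood (robust, two-sided; R 4.3.3). A single model of 3 groups held the 10 libraries and left 7 residual degrees of freedom. Set levels are means of log2 CPM with a prior count of 2. Shared reads were gauged as 50-base stretches of a gene's transcripts, 1 in 8 sampled, that occur in another annotated gene. Alternatives were other scalings, filters and thresholds, DESeq2 1.42.0, limma-voom (limma 3.58.1), fits of the 2 groups compared, a replicate block, a GC trend or abundant genes removed, and each library left out.

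The 37 genes and all lists were chosen with earlier results of these data known. The naming rule gave statistics for genes called in any comparison and for the 2 with the highest mean CPM of each role (23 genes). S100a8, Retnlg, Mrgpra2b, Asprv1, Ngp, Camp, Elane and Ctsg were added after their values were seen (31 in all). From other lists it took up to 4 called genes with the smallest adjusted p in LPS against Vehicle, and Cxcr2, Csf3r, Mmp8, Mmp9 and Ly6g. Ace, the airway and mast cell markers, and Ms4a3 and the other further precursor genes that were not called were named after their values were seen.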

Additional observations from a re-analysis of the deposited data

Results flagged for a closer look

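A sample lay far from the other 3 of its group in 6 of the 37 genes, by Dixon's test at the 95% level, and in each it was LPS+TSLP replicate 1. Groups of 3 were not checked, and chance flags about 1 group in 20. It was low for Fpr1 (4.54 CPM, others 32.6 to 36.5), Wfdc21 (4.15 CPM, others 20.4 to 23.6), Slpi (55.9 CPM, others 152 to 167) and Lcn2 (1092 CPM, others 4877 to 5241). It was high for Cd177 (245 CPM, others 18.1 to 44.7) and Ltf (437 CPM, others 33.3 to 35.2). The library also had 13.1% mitochondrial counts and the highest Bpifb1 and Muc5b of the 10 libraries (1184 and 1367 CPM), and the part of either in these values was not tested.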

How the results depend on the processing

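With all alternatives the sign of the mature median held in each comparison: 1.56 to 2.34 for LPS against Vehicle, −1.54 to −1.02 for LPS+TSLP against LPS and 0.29 to 0.95 for LPS+TSLP against Vehicle. The count of genes called was 15 in LPS against Vehicle and 10 to 22 when 1 library was left out, and 23 (20 higher, 3 lower) with only the 2 groups compared in the fit. In LPS+TSLP against LPS it was 0 under each alternative except the DESeq2 Wald test, with 2; the precursor median there was −0.22 under limma-voom. In LPS+TSLP against Vehicle it was 3, and 6 with DESeq2 size factors in edgeR, with upper quartile factors and with the replicate block, 7 with the DESeq2 Wald test, 5 with the GC trend removed, 0 at an adjusted p under 0.01, 8 without LPS+TSLP replicate 1 and LPS replicate 1 together (chosen after seeing the data) and 0 to 6 when 1 library was left out. The precursor median there was −0.36 and turned positive without LPS+TSLP replicate 1 (0.03), LPS+TSLP replicate 4 (0.04) or Vehicle replicate 2 (0.25). The labels do not say whether equal replicate numbers pair the libraries. Between libraries of the same number, correlations of deviations from group means ran from −0.344 to 0.405. With so few libraries per group these cannot decide it. The replicate block gave 16, 0 and 6 calls in the 3 comparisons.

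Signs turned in genes that were not called. In LPS against Vehicle Itgb2 was at 0.21 with the GC trend removed, −0.33 to 0.2 when 1 library was left out, and 0.23 without LPS+TSLP replicate 1 and LPS replicate 1 together. In LPS+TSLP against LPS, leaving out 1 library gave −0.31 to 0.14 for Lrg1, −0.49 to 0.15 for Pglyrp1, −1.69 to 0.74 for Cd177, −1.51 to 1.06 for Ltf, −0.09 to 1.24 for Ngp, −0.34 to 1.1 for Camp and −0.03 to 1.25 for Elane. Without LPS+TSLP replicate 1 and LPS replicate 1 together Lrg1 was at 0.33 and Ltf at −1.36, with upper quartile factors Cd177 was at 0.02, and under limma-voom Ngp was at −0.05, Camp at −0.22 and Elane at −0.65. In LPS+TSLP against Vehicle Stfa2l1 was at −0.15 and Cybb at −0.3 with the GC trend removed. The cause of these moves was not tested. Depth itself was not varied.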
